A study of Mus musculus with 14 samples.

Results

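Metallothioneins and the transporters of zinc, copper and iron were examined in peritoneal cells of mice that had received lipopolysaccharide (LPS) with or without a prior dose of SMD. The members were 10 genes, chosen by name: Mt1, Mt2, Mtf1, Slc30a1, Slc39a14, Slc39a10, Slc31a2, Slc11a2, Slc40a1 and Tfrc. They were represented by 30 of the 45101 probe sets on the array, each a group of short probes for 1 or more transcripts, whose only platform gene symbol was one of these names. Of the 30, 22 passed a filter on dim signals and were tested, 5 were too dim, and 3 were control probe sets of the array maker for Tfrc that were left out of the tests. All 10 genes had at least 1 tested probe set, among 12817 genes tested.

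The mice were C57Bl/6 x C3H F1 females aged 12 to 16 weeks, and 14 arrays were made from their peritoneal cells. The 2 naive arrays were from mice with neither LPS nor SMD. The other 12 arrays were from mice given 60 µg of Salmonella minnesota LPS into a tail vein, with 3 arrays for LPS alone and 3 each for SMD at 100, 200 or 300 mg/kg. SMD was placed on the nares under halothane 30 min before LPS, and the labels put these cells at 2.0 h after LPS, while no time was given for LPS alone. The labels do not spell SMD out, nor do they say whether the naive and LPS mice received halothane or vehicle, or whether an array was 1 mouse or a pool. The challenged samples were labelled biological replicates and the naive ones only replicates. P-values for contrasts with the naive group use a spread pooled over all 14 arrays, most of it from the challenged ones. The separate origin of the 2 naive arrays is not stated, and they may be technical replicates. Variation among naive mice was therefore barely measured, and the fit takes it as equal to that of the challenged groups.

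The labels name the tissue as peritoneal macrophages. All 10 resident macrophage markers listed for this check were above the dim threshold, with a summed signal of 152545 to 183894 on the 14 arrays. Single markers moved in opposite directions within this sum. From naive to LPS the mean of Cd14 rose from 8096 to 44200. Those of Gata6 (2665 to 828.2), Icam2 (13564 to 6123), Vsig4 (19824 to 12831) and Itgam (4268 to 2314) fell. The others changed by a smaller ratio. From LPS to 300 mg/kg Itgam (2314 to 675.2), Cd14 (44200 to 33262), Gata6, Lyz2 and Cd68 fell. Over the same step Vsig4 (12831 to 19235), Timd4 (11579 to 15732), Adgre1, Csf1r and Icam2 rose. The sum thus does not show a steady level of each marker. Transcripts of other peritoneal cells were present too. B cell markers (7 of 8 on the array) summed to 45311 and 49871 in naive cells and 24750 to 26098 with LPS. They summed to 14424 to 24691 and 19011 to 25708 at 100 and 200 mg/kg and 29136 to 34619 at 300 mg/kg. From LPS to 300 mg/kg Ms4a1 (14547 to 20037), Blk (1928 to 3070), Cr2 and Fcer2a rose. Cd79a (3189 to 1467) and Pax5 (117.1 to 50.9) fell, and Cd79b went from 5378 to 5753. T and NK cell markers (5 of 8) summed to 1719 and 1973 in naive cells and 796 to 1072 with LPS. They summed to 644 to 1240, 1632 to 2145 and 2573 to 3734 at 100, 200 and 300 mg/kg. The naive, LPS and 300 mg/kg sums did not overlap. From LPS to 300 mg/kg Cd3e (179.5 to 767.7), Cd3d, Cd3g and Thy1 rose, while the NK cell marker Ncr1 went from 71.6 to 60.3. Mast cell markers summed to 41628 to 53435 over all arrays. Mesothelial cell and fibroblast markers (5 of 8 above the dim threshold) summed to 394 to 520 with LPS. At 100, 200 and 300 mg/kg they summed to 393 to 1137, 621 to 2028 and 438 to 1320. From LPS to 200 mg/kg Col3a1 (79.9 to 545.4) and Dcn (134.1 to 539.9) rose most. Krt19 and Wt1 fell, and the rest of that list rose by less. The part of these shifts in the results on metal genes was not tested. In bulk RNA, fewer cells of a type and less RNA per cell cannot be told apart. Between arrays of a group Pearson r over all tested probe sets was 0.925 to 0.954. The 3'/5' signal ratio of actin, a sign of RNA integrity and labelling, was 2.84 and 3.05 in naive arrays and 1.92 to 5.86 with LPS. It was 2.72 to 11.6, 9.03 to 10.7 and 6.99 to 18.9 at 100, 200 and 300 mg/kg. The same ratio of GAPDH was higher, at 6.78 and 8.86 in naive arrays and 4.54 to 92 with LPS. At 100, 200 and 300 mg/kg it was 21 to 74.2, 67 to 114 and 32.2 to 179. The actin ratio moved with dose, and dose results are therefore also given from a fit with it as a covariate. Every ratio at 200 and 300 mg/kg was above every one with LPS. In these contrasts the ratio and the dose therefore cannot be fully told apart, with or without the covariate. The GAPDH ratio entered no fit. At 100 mg/kg the arrays were uneven: replicate 3 had the lowest actin ratio of its group (2.72), and its signal for several members lay nearer the LPS arrays than its partners did.

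Metallothioneins are small cysteine-rich proteins that hold zinc and copper. Their genes are switched on by free zinc through the transcription factor MTF1, and also by glucocorticoids and inflammatory cytokines. Transporters of the SLC30 family move zinc out of the cytosol and those of the SLC39 family bring it in. Inflammatory signals are known to redistribute zinc and iron, and macrophages take part by storing both metals. Dithiocarbamates, a class of small molecules with a metal-binding dithiocarbamate group, can chelate copper, zinc and iron or carry them across membranes.

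LPS raised both metallothionein genes, the zinc importer Slc39a14, the iron transporter Slc11a2, the transferrin receptor Tfrc and the copper transporter Slc31a2, and it lowered the zinc exporter Slc30a1. With SMD the metallothionein probe sets disagreed: Mt1 1422557_s_at and Mt2, both near the top of the array's range, were not called different from LPS, and Mt1 1451612_at, well below that range, was called higher at 200 and 300 mg/kg. With the actin 3'/5' ratio as a covariate Mt1 1422557_s_at was called lower at 300 mg/kg and 1451612_at was not called. SMD moved Slc30a1 upwards, against the direction of LPS, and lowered Slc39a14, Slc11a2, Slc31a2 and, on a narrower margin, Tfrc at 300 mg/kg. Slc39a10 and Mtf1, which LPS did not change past the threshold, were also lower at 300 mg/kg.

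In LPS against naive, 7 of the 10 genes were called at an adjusted p under 0.05, 6 higher and 1 lower. The background was 32.5% of all genes tested, with 12.5% higher and 20.0% lower. The median difference of the 10 genes was 1.15 on the log2 scale and that of all genes was -0.22. The median of all genes moved to 0.21 when arrays were scaled to their median and to -0.05 after quantile normalization. The split of calls over all genes was 1604 higher and 2560 lower, against 2679 and 1264 with median scaling and 1949 and 2249 after quantile normalization. None of the 7 called members changed direction or lost its call under these scalings.

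Neutrophil markers moved with the same contrast. The 9 of 11 listed that were on the array summed to 1478 and 1651 in naive cells, 17934 to 21884 with LPS and 35495 to 46190 at 300 mg/kg. S100a8 and S100a9 made up most of that sum. Their means were 11069 and 6954 with LPS and 22892 and 14771 at 300 mg/kg. Among the granule genes the mean signal of Ngp went from 60.1 in naive cells to 1146 with LPS and 1181 at 300 mg/kg. In the same groups Camp read 47.5, 266.9 and 258.8, Ltf 7.15, 166 and 205.9, and Mmp8 49.3, 148.2 and 309. Mpo read 8.2, 57.9 and 55.6, and Elane 52.3, 72.5 and 65.4. Most granule genes thus did not follow the further rise of the sum from LPS to 300 mg/kg. The part of these cells in the results on metal genes was not tested.

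**Figure D1:**
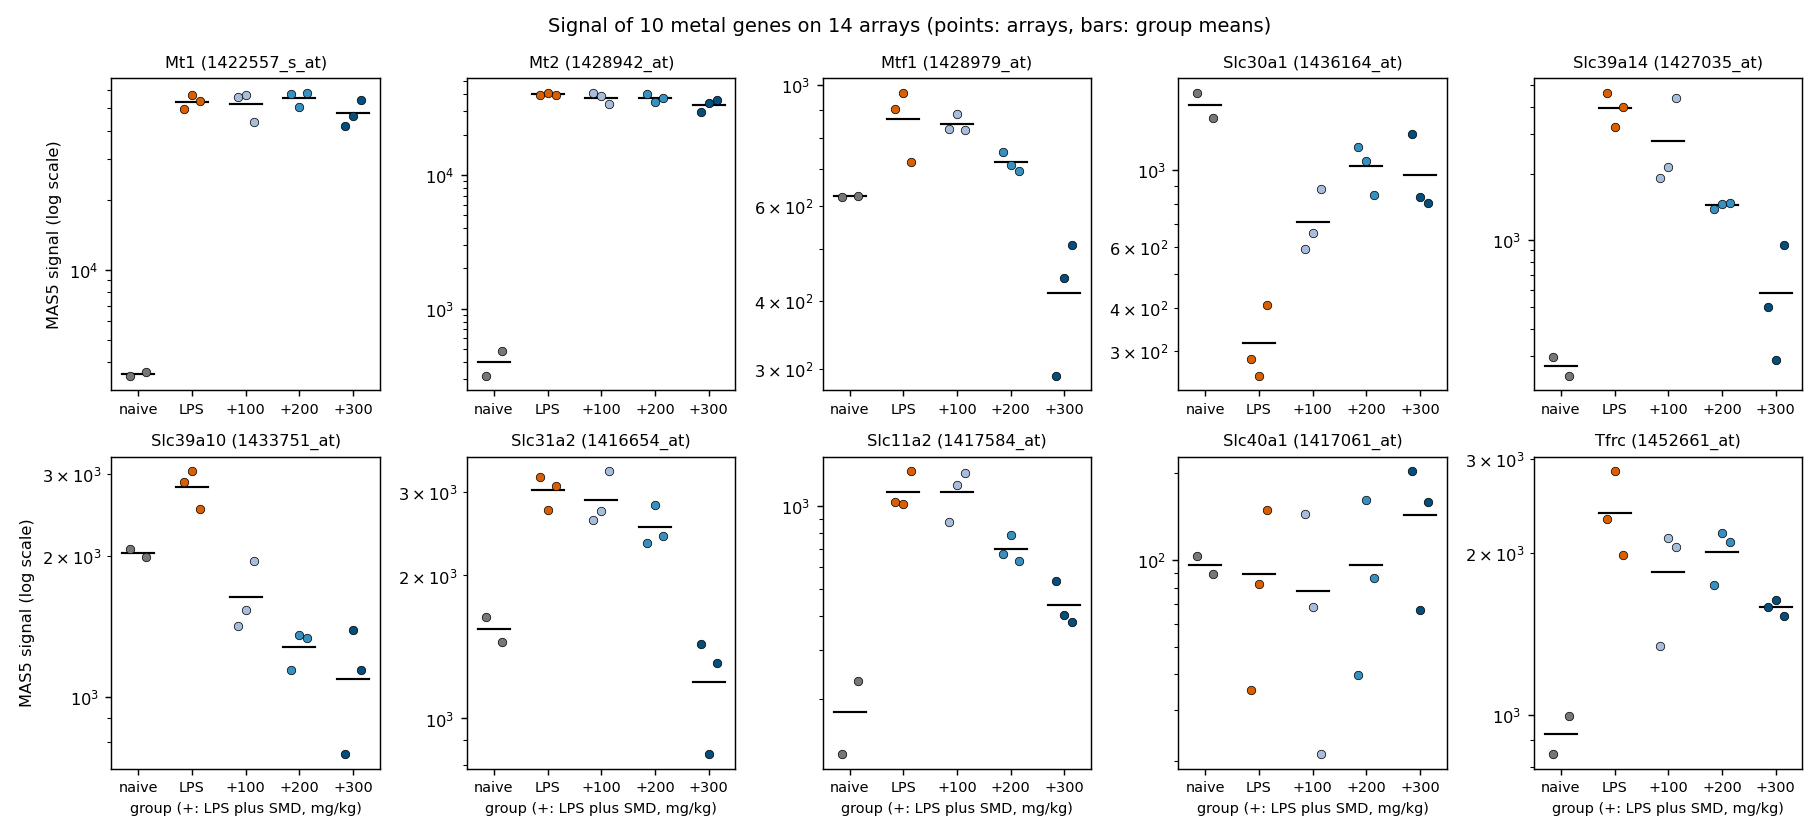
MAS5 signal (vertical axes, log scale, a separate range in each panel) of the probe set that stands for each of the 10 genes, by group (horizontal axes). Points are the 14 arrays and bars the group means. Mt1 and Mt2 rose with LPS and stayed high, Slc30a1 fell and partly came back with SMD, and Slc39a14, Slc31a2 and Slc11a2 rose and then declined with dose.

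Mt1 and Mt2, the metallothioneins of most tissues, were many-fold above naive in every challenged array. On naive arrays the Mt1 probe set 1422557_s_at had signals of 3484 and 3634. With LPS it read 49333, 56715 and 53503. At 100, 200 and 300 mg/kg SMD its signals were 43604 to 57138, 50399 to 58331 and 41919 to 54288. Every challenged array was thus far above both naive ones, and the challenged groups overlapped. The log2 difference of LPS from naive was 3.89 ± 0.14 (SE, n = 3 and 2), 14.9-fold, with an adjusted p of 6.89e-13 from limma. Differences of the SMD groups from LPS were -0.04 ± 0.13, 0.06 ± 0.13 and -0.17 ± 0.13 for rising dose, with none called. Given the actin covariate the one at 300 mg/kg was -0.51 (adjusted p = 0.0333).

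Mt2 was measured by 1428942_at. Naive arrays read 314 and 480.4, and LPS arrays 39820, 41230.0 and 39293. The groups did not overlap, and the difference of 6.63 ± 0.16 was the widest among the 10 genes in this contrast, 99.1-fold (adjusted p = 2.69e-15). At 100 mg/kg the 3 signals were 40912, 38652 and 33789, and at 200 mg/kg they were 40037, 35188 and 37639. The dose of 300 mg/kg gave 29430, 34604 and 36356 for Mt2, all under the lowest LPS array. That last difference, -0.27 ± 0.14, did not pass the test (adjusted p = 0.189).

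Both probe sets read close to the top of the array's range in every challenged sample. Mt1 1422557_s_at reached 77.8 to 95.7% of the highest signal on its own array and ranked between 7 and 45 among all probe sets. Mt2 reached 56.0 to 74.2% and ranked 52 to 184. Over the 12 challenged arrays Mt1 1422557_s_at followed the array's highest signal with a Pearson r of 0.88, and Mt2 with 0.62. These are descriptions over arrays that share groups and a scaling step.

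The second Mt1 probe set, 1451612_at, read far below that range and gave another picture of dose. Its naive signals were 15.2 and 6.3, below the dim threshold of 33.9, and LPS brought them to 1253, 1529 and 1283. SMD at 100 mg/kg gave 1358, 1958 and 1759, 200 mg/kg gave 2479, 2255 and 2505, and 300 mg/kg gave 3893, 1799 and 2336. All arrays at 200 and 300 mg/kg were above all LPS arrays. The difference from LPS was 0.31 ± 0.25 at 100 mg/kg, 0.83 ± 0.25 at 200 mg/kg (adjusted p = 0.0337) and 0.90 ± 0.25 at 300 mg/kg (adjusted p = 0.00993). The dose trend was 0.32 ± 0.07 per 100 mg/kg (adjusted p = 0.0029).

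The rise of Mt1 1451612_at kept its direction in all 23 other settings, at 0.78 to 0.98 for 200 mg/kg and 0.60 to 1.15 for 300 mg/kg, but its calls did not. The call at 200 mg/kg was lost in 7 of 23, among them all but 1 of the 6 that left out an array of either group, where the adjusted p ran up to 0.125. The call at the highest dose was lost without replicate 1 of that dose (0.60, adjusted p = 0.0695) and with the actin covariate (1.00, adjusted p = 0.0779). With that covariate the trend was 0.33 (adjusted p = 0.0736). The rise with LPS was 5.69 ± 0.28 with the pseudocount of 16, 6.96 with 1 and 4.24 with 64, since the naive signals were so low. The pair of Mt1 probe sets had a Pearson r of -0.24 over the challenged arrays and so gave different readings of Mt1 with SMD. Their naive signals differed as well, at 3484 and 3634 on 1422557_s_at against 15.2 and 6.3 on 1451612_at. Which set follows the Mt1 transcript more closely was not tested.

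**Figure D2:**
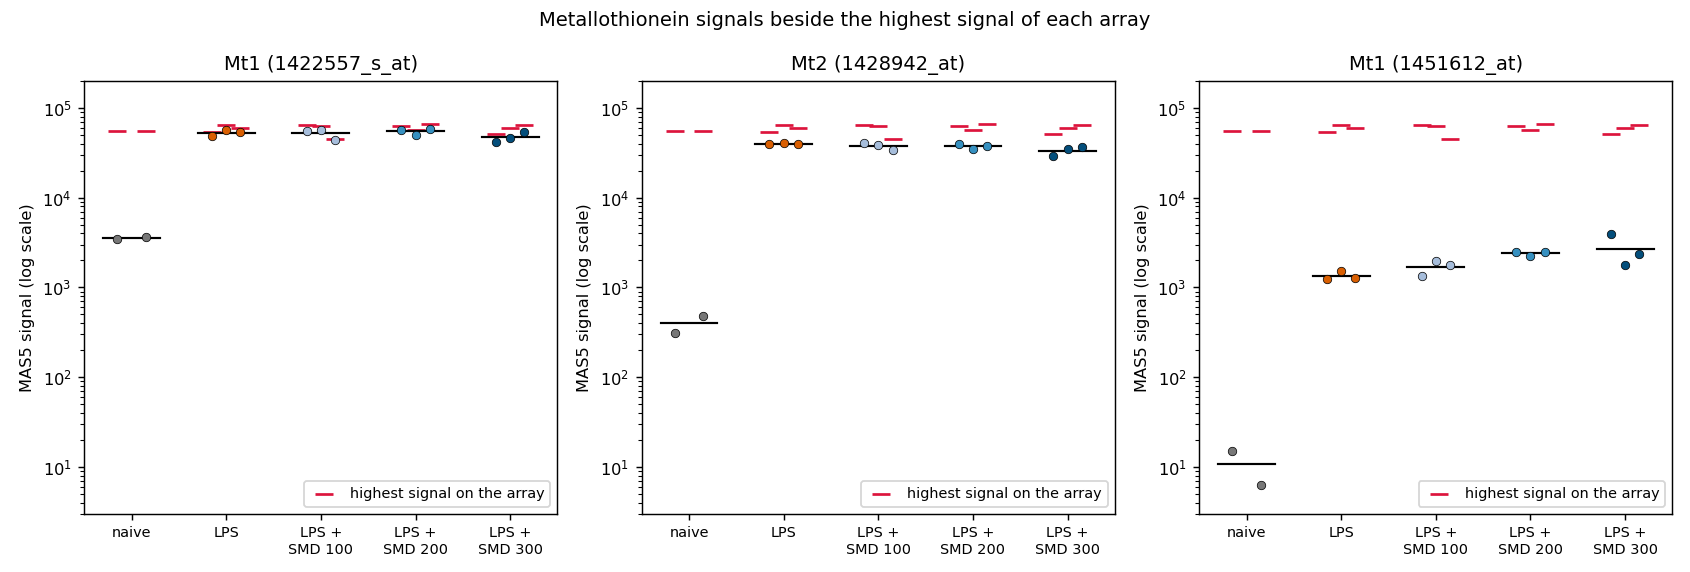
Signals of the metallothionein probe sets (vertical axes, MAS5 signal on a log scale) by group, with points for arrays, black bars for group means and red marks for the highest signal on each array. Mt1 1422557_s_at lies at 77.8 to 95.7% of the array's highest signal on the challenged arrays, while Mt1 1451612_at lies at 2.09 to 7.49% of it.

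MTF1 binds metal response elements, short DNA motifs with a conserved core. The core forms TGCACNC and TGCGCNC were searched on both strands in the 250 bases before each transcription start of RefSeq's mouse promoters (build GRCm38.p6). A window for 7 of the 10 genes was given (9 windows), and none for Slc39a14, Slc11a2 and Slc40a1. The Mt2 window held 3 cores, shown here because Mt2 had the largest response to LPS, and 1.26% of all 32851 windows held 3 or more. At least 1 core was in 21.4% of all windows. The Mt1 and Slc30a1 windows held 1 core each, shown with 10 bases on either side. Both windows overlap annotated gene extents, and bases past each start were not searched. A count of 1 core therefore describes the window and not the whole promoter, and it cannot be set against the count for Mt2. The window of Slc31a2 held 1 core, the first Tfrc window held 2 that overlap each other on opposite strands, and those of Mtf1, Slc39a10 and the second of Tfrc held none. Capitals mark the cores, all sequences are of the plus strand, and a core on the minus strand appears as its reverse complement.
Mt2, chr8:94172368-94172617: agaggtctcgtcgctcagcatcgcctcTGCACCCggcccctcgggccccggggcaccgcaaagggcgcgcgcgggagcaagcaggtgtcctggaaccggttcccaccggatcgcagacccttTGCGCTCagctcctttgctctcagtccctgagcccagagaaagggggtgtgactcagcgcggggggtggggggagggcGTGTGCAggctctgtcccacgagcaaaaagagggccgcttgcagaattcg
Mt1, chr8:94179056-94179082: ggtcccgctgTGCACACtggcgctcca
Slc30a1, chr1:191906728-191906754: cgggggttccGAGTGCAaagcaaagtt
A match to these letters is a description of the window, not a measured binding site.

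The genes with signals most like the metallothioneins were taken from 7838 brighter genes over the 12 challenged arrays, by Pearson r. For Mt1 1422557_s_at these were Lyz2 (0.952), Wdr61 (0.939), Psmd14 (0.934), Anapc10 (0.934) and Fth1 (0.930). As this probe set itself followed the array's highest signal (r = 0.88), its likeness to these genes cannot be told apart from the upper range of each array. For Mt2 they were Tfg (0.914), Ran (0.910), Selp (0.896), Ifitm3 (0.892) and 9630050P21Rik (0.887). Mt1 and Mt2 had an r of 0.829 with each other, which ranked 62 among the genes like Mt1 and 40 among those like Mt2.

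Mtf1, the zinc-sensing transcription factor that drives metallothionein and Slc30a1, did not pass the test after LPS. Its probe set 1428979_at read 623 and 625 on naive arrays and 906, 969 and 723 with LPS, with a difference of 0.45 ± 0.24 (adjusted p = 0.194). Both naive arrays were below all LPS arrays, and the difference was called with quantile normalization (0.78, adjusted p = 0.0342) and with median scaling (0.88, adjusted p = 0.0191). At 300 mg/kg SMD the signals dropped to 292, 441 and 509, below every other array. The difference from LPS was -1.06 ± 0.22 (adjusted p = 0.00122), and it was called in all 24 other settings, with values from -1.46 to -0.50.

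The other Mtf1 probe sets did not pass the test. On 1418333_at the 300 mg/kg arrays read 286, 272 and 224 against 376, 358 and 399 with LPS, a difference of -0.51 ± 0.25 without overlap of the arrays that was not called (adjusted p = 0.141). On 1429170_a_at, a set whose suffix marks alternative transcripts of one gene, they read 421, 272 and 324 against 288, 345 and 312 (0.08 ± 0.26). A lower Mtf1 signal at 300 mg/kg was therefore seen past the threshold on 1 of 3 tested probe sets. The remaining 2 Mtf1 probe sets were too dim to test, with signals from 2.0 to 84.8.

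Slc30a1 encodes ZnT1, the zinc exporter of the plasma membrane, whose gene MTF1 also drives. It went the opposite way from the metallothioneins after LPS and was the only one of the 10 genes called higher with SMD, by the probe set that stands for each gene. Naive arrays read 1672 and 1413 on 1436164_at. The LPS arrays read 286, 255 and 409, all lower, for a difference of -2.25 ± 0.27, 4.76-fold lower (adjusted p = 5.99e-06). With SMD at 100 mg/kg the signals were 592, 658 and 880.4, at 200 mg/kg 1166, 1059.8 and 846, and at 300 mg/kg 1272, 835 and 803. Every SMD array lay above every LPS array and below both naive ones.

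The size of the rise was 1.13 ± 0.24 at 100 mg/kg, which did not pass the test (adjusted p = 0.246). It was 1.66 ± 0.24 at 200 mg/kg, 3.16-fold (adjusted p = 0.000543), and 1.56 ± 0.24 at 300 mg/kg, 2.96-fold (adjusted p = 0.000105). The last of these did not differ past the threshold from that at 200 mg/kg (-0.10 ± 0.24) or from that at 100 mg/kg (0.43 ± 0.24, adjusted p = 0.261, and 0.77 with adjusted p = 0.0458 given the actin covariate). With the actin covariate the differences of Slc30a1 1436164_at from LPS were 2.12 at both higher doses. Both calls held in all 24 other settings.

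A second Slc30a1 probe set, 1422786_at, moved the same way. It read 113 and 214 on naive arrays and 21.1, 40.7 and 122 with LPS, so that 1 LPS array lay between the naive ones. The fall with LPS, -1.38 ± 0.47 (adjusted p = 0.0367), lost its call in 8 of 23 other settings, 3 of which left out an array: -0.96 (adjusted p = 0.149) without LPS replicate 1, -1.27 (adjusted p = 0.0853) without LPS replicate 2 and -0.96 (adjusted p = 0.322) without naive replicate 2. With SMD it read 138 to 302 at 100 mg/kg, 283 to 352 at 200 mg/kg and 396 to 564 at 300 mg/kg, always above the LPS arrays. The differences were 1.73 ± 0.42 (adjusted p = 0.301), 2.30 ± 0.42 (adjusted p = 0.00213) and 2.92 ± 0.42 (adjusted p = 5.1e-05). The call at 200 mg/kg was lost with the actin covariate (2.03, adjusted p = 0.0782) and that at 300 mg/kg in none of the 23.

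Slc39a14 encodes ZIP14, which imports zinc and iron and is known to be induced in inflammation. It had the largest decline with SMD among the 10 genes. Its probe set 1427035_at read 297 and 245 on naive arrays and 4634, 3237 and 3980 with LPS, a rise of 3.78 ± 0.37, 13.7-fold (adjusted p = 5.52e-07). At 100 mg/kg the arrays split: replicates 1 and 2 read 1909 and 2150 and replicate 3 read 4364, inside the range with LPS. Signals at 200 mg/kg were 1379, 1459 and 1481, and at 300 mg/kg they were 499.7, 289.8 and 949.5, with the lowest inside the naive range.

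Differences from LPS were -0.58 ± 0.33 at 100 mg/kg, -1.43 ± 0.33 at 200 mg/kg (2.70-fold lower, adjusted p = 0.00955) and -2.88 ± 0.33 at 300 mg/kg (7.35-fold lower, adjusted p = 6.09e-06). The dose trend was -0.95 ± 0.11 per 100 mg/kg (adjusted p = 7.37e-06). The call at 200 mg/kg was lost without LPS replicate 1 (-1.31, adjusted p = 0.0575) and with the actin covariate (-1.06, adjusted p = 0.249), while that at 300 mg/kg was kept in all 24 settings. From 200 to 300 mg/kg the signal fell again, by -1.45 ± 0.33 (adjusted p = 0.0168), a call lost without replicates 1 or 3 at 200 mg/kg (-1.48 and -1.43, adjusted p = 0.0512 and 0.0679) and without replicate 2 at 300 mg/kg (-1.04, adjusted p = 0.123).

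Of the other Slc39a14 probe sets, 1438490_at read 220.0, 120.4 and 204 with LPS and 38.5, 10.2 and 4.8 at 300 mg/kg, a difference of -2.63 ± 0.55 (adjusted p = 0.00141). With the actin covariate it was -1.54 (adjusted p = 0.255). Its naive signals were 9.5 and 57.0, on either side of the dim threshold. Its rise with LPS was 2.15 ± 0.62 (adjusted p = 0.0135), not called without naive replicate 1 (1.39, adjusted p = 0.225). On 1425649_at the 300 mg/kg difference was -1.13 ± 0.40 (adjusted p = 0.0443), lost in 13 of 23 other settings. Among these 13 were 8 that left out an array, with differences of -1.19 to -0.82 and adjusted p of 0.0534 to 0.181. All 3 sets thus pointed down with SMD at 300 mg/kg. The fourth, 1457770_at, was too dim, at 1.7 to 23.7.

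Slc39a10 encodes ZIP10, another zinc importer of the plasma membrane. LPS did not change it past the threshold: 1433751_at read 2072 and 1989 on naive arrays and 2876, 3038 and 2522 with LPS (0.46 ± 0.23, adjusted p = 0.155). With median scaling the difference was 0.89 (adjusted p = 0.0104). All 9 SMD arrays were below all naive and LPS arrays, with signals of 1419, 1535 and 1948 at 100 mg/kg, 1142, 1359 and 1338 at 200 mg/kg, and 754, 1391 and 1139.9 at 300 mg/kg. The differences from LPS were -0.79 ± 0.21 (adjusted p = 0.316), -1.13 ± 0.21 (adjusted p = 0.00207) and -1.39 ± 0.21 (adjusted p = 6.58e-05). Both calls held in all 24 other settings.

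The other Slc39a10 set, 1439041_at, fell at both higher doses as well. It read 731, 285 and 463 with LPS, 27.5, 99.0 and 47.6 at 200 mg/kg and 70.5, 30.9 and 80.5 at 300 mg/kg, for differences of -2.80 ± 0.51 (adjusted p = 0.00201) and -2.70 ± 0.51 (adjusted p = 0.000585). Given the actin covariate they were -1.73 (adjusted p = 0.17) and -1.39 (adjusted p = 0.205). Over the 12 challenged arrays Slc39a10 1433751_at and Slc30a1 1436164_at had a Pearson r of -0.90, a description over arrays that share 4 groups.

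Slc31a2 encodes CTR2, a copper transporter of endosomes and lysosomes. Signals of 1416654_at were 1637 and 1451 in naive cells and 3218, 2750.1 and 3092 with LPS, 0.96 ± 0.21 higher (adjusted p = 0.00221). At 100 and 200 mg/kg they ran from 2614 to 3316 and from 2342 to 2815, overlapping LPS. Those at 300 mg/kg were 1434, 840.1 and 1307, below all other arrays. That difference was -1.36 ± 0.19, 2.57-fold lower (adjusted p = 3.82e-05), and it was called in all 24 other settings.

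On that set the difference from 200 to 300 mg/kg was -1.10 ± 0.19 (adjusted p = 0.00299), not called only in the setting that averaged the probe sets of a gene (-1.05, adjusted p = 0.0773). On 1453721_a_at Slc31a2 read 378 to 944 with LPS, 144 to 255 at 200 mg/kg and 29.3 to 151 at 300 mg/kg. Its fall was -1.85 ± 0.48 at 200 mg/kg (adjusted p = 0.0179), lost in 5 of 23 other settings. It was -2.84 ± 0.48 at 300 mg/kg (adjusted p = 0.00024), and -1.17 (adjusted p = 0.172) with the actin covariate. At 200 mg/kg the call of 1453721_a_at was lost without LPS replicate 1 or 3 (-1.62 and -1.67) and without replicate 1 or 3 of that dose (-1.74 and -1.72), with adjusted p of 0.0619 to 0.0974, and with the actin covariate (-0.49, adjusted p = 0.699). The mean of both Slc31a2 sets was called at 200 mg/kg (-1.06, adjusted p = 0.0472), where 1416654_at was at -0.26 ± 0.19 (adjusted p = 0.42).

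Slc11a2 encodes DMT1, which carries ferrous iron across membranes. On 1417584_at the naive signals were 126 and 232 and those with LPS 1031, 1017 and 1337, 6.06-fold higher (2.60 ± 0.28, adjusted p = 1.52e-06). SMD at 100 mg/kg left the range near that of LPS (878 to 1317). At 200 mg/kg it was 631 to 787 and at 300 mg/kg 379 to 536, each below all LPS arrays. The difference was -0.68 ± 0.25 at 200 mg/kg, not called (adjusted p = 0.0805), and -1.34 ± 0.25 at 300 mg/kg (adjusted p = 0.000524). The latter was -1.08 with the actin covariate (adjusted p = 0.0552).

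Of the other 3 tested Slc11a2 sets, 1452078_a_at and 1426441_at rose with LPS by 3.61 ± 0.35 and 5.11 ± 0.38. The second had naive signals of 32.5 and 4.9, below the dim threshold, and its rise was 6.27 with a pseudocount of 1 and 3.82 with 64. The first was also lower at 200 mg/kg, by -1.20 ± 0.31 (adjusted p = 0.017), a call lost without LPS replicate 1 (-1.03, adjusted p = 0.0976), without replicate 1 or 3 of that dose (-1.13 and -1.08, adjusted p = 0.0634 and 0.0642) and with the actin covariate (-0.61, adjusted p = 0.477). Both fell at 300 mg/kg, by -1.90 ± 0.31 (adjusted p = 0.000156) and -1.69 ± 0.34 (adjusted p = 0.00108), and with the actin covariate the differences were -1.19 and -1.55 (adjusted p = 0.0625 and 0.0529). The last, 1441709_at, had naive signals of 4.1 and 23.6, also below the dim threshold. It rose with LPS by 2.37 ± 0.51 (1.34 to 3.54 over the other settings) and had -0.87 ± 0.45 at 300 mg/kg (adjusted p = 0.178). The rise with LPS was thus called on all 4 sets and the fall at 300 mg/kg on 3 of them. However, 1426441_at and 1441709_at passed the dim filter only through the challenged arrays, and the size of their rise depends on the settings.

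Tfrc, the transferrin receptor that brings in transferrin-bound iron, rose with LPS. Its set 1452661_at read 844 and 995 on naive arrays and 2315, 2844 and 1986 with LPS (1.35 ± 0.22, adjusted p = 0.000139). With 300 mg/kg it read 1587, 1639 and 1531, below the LPS arrays. The difference of -0.57 ± 0.20 passed narrowly (adjusted p = 0.0383) and was lost in 11 of 24 other settings, 5 of which left out an array of either group. Without LPS replicate 2 it was -0.43 (adjusted p = 0.14), and without LPS replicate 1 or one of the 3 arrays at 300 mg/kg it was -0.59 to -0.54 (adjusted p = 0.0734 to 0.0938). On 1422966_a_at the rise with LPS was also 1.35 ± 0.31 (adjusted p = 0.003; 1.02 and 0.0799 without naive replicate 1), and the 300 mg/kg difference was -0.11 ± 0.28.

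Red cell precursors use Tfrc and Slc11a2 heavily. Of 9 red cell markers 5 were on the array and 4 above the dim threshold. The 5 summed to 214 and 224 in naive cells, 320 to 686 with LPS and 174 to 293 at 300 mg/kg. Single markers did not move together. In the same groups the mean of Alas2 was 5.05, 227.7 and 41.5, and that of Slc4a1 121.2, 77.8 and 21.8. Hba-a1 read 56.8, 50.5 and 67.3, Epor 20.6, 64.4 and 57.9, and Klf1 15.8, 30.8 and 39.9. Whether red cell precursors bear on the Tfrc and Slc11a2 results was not tested. The array maker's control sets for the 3', middle and 5' parts of Tfrc read 62.6 to 167.2, 2.7 to 86.2 and 5.4 to 67.9 over the 14 arrays. A further set, 1422967_a_at, was too dim, at 2.9 to 96.8.

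Slc40a1 encodes ferroportin, the iron exporter of macrophages. It was dim and uneven, and no call was made in any comparison or other setting. Its set 1417061_at read 103 and 89.1 on naive arrays, 35.2, 82.6 and 149 with LPS, and 203, 67.0 and 159 at 300 mg/kg. The groups overlapped, with differences of -0.25 ± 0.67 for LPS against naive and 0.64 ± 0.60 for 300 mg/kg against LPS. The last error compares with 0.19 for Slc31a2 in the same contrast. The other set, 1448566_at, was too dim, at 1.0 to 100.3.

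**Figure D3:**
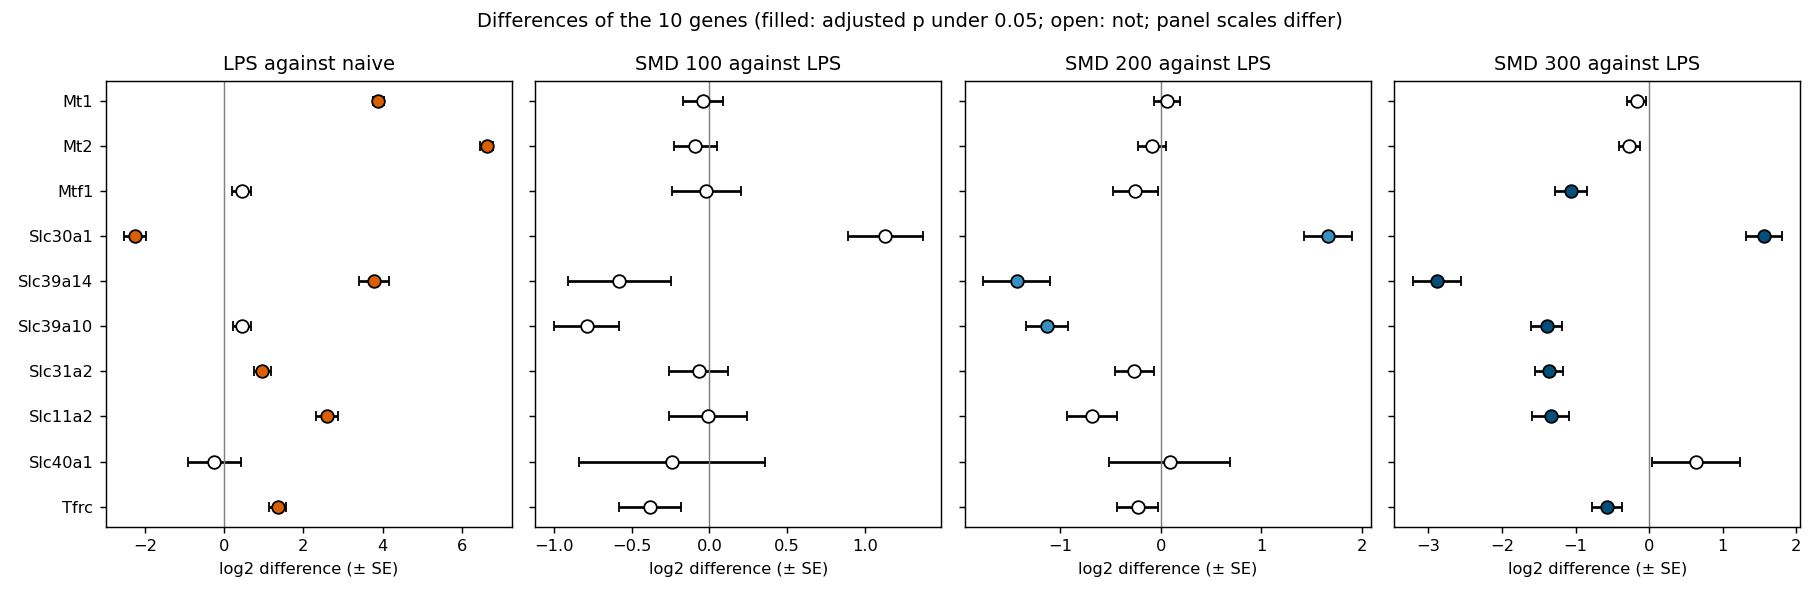
Log2 difference ± SE (horizontal axes, a separate range in each panel) of the 10 genes in LPS against naive and in each SMD dose against LPS. Filled points had an adjusted p under 0.05. There are 7 filled points for LPS against naive, 0 at 100 mg/kg, 3 at 200 mg/kg and 7 at 300 mg/kg, where only Slc30a1 lies on the positive side among them.

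Across doses, SMD at 100 mg/kg gave no call against LPS among the 10 genes or among all genes (0%, 0% higher and 0% lower). By limma's unadjusted p under 0.05 there were 1276 genes, among them 2 of the 10, Slc30a1 and Slc39a10, and the smallest adjusted p over all genes was 0.193. With arrays weighted by their quality these 2 were called, at 1.03 and -0.85 (adjusted p = 0.0409 and 0.0432). Without replicate 3 at 100 mg/kg Slc39a10 was called (-0.92, adjusted p = 0.0394), and Slc30a1 was at 0.97 (adjusted p = 0.0623). The second Slc30a1 set, 1422786_at, was called both with weights (1.93, adjusted p = 0.0412) and without that array (1.98, adjusted p = 0.0347).

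SMD at 200 mg/kg gave 3 calls, Slc30a1 higher and Slc39a14 and Slc39a10 lower. The background was 14.9% of all genes, with 9.03% higher and 5.92% lower. The members' median was -0.24 and that of all genes 0.02 (0.17 with median scaling, which changed the split over all genes from 1157 higher and 759 lower to 1442 and 529). SMD at 300 mg/kg gave 7 calls, Slc30a1 higher and Slc39a14, Slc39a10, Slc31a2, Slc11a2, Mtf1 and Tfrc lower. The background was 31.7%, with 17.7% higher and 14% lower, and the medians were -0.81 for the members and 0.05 for all genes. These comparisons share the LPS arrays with each other and with LPS against naive.

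Between doses, no member was called from 100 to 200 mg/kg, where 1.33% of genes were (1.03% higher, 0.296% lower). Limma's unadjusted p was under 0.05 for 3 of the 10 and for 1974 of all 12817 genes. From 200 to 300 mg/kg Slc39a14, Slc31a2 and Mtf1 were lower, 3 of 10 against 6.70% of all genes (2.72% higher, 3.99% lower). Without replicate 1 or 3 at 200 mg/kg or replicate 2 at 300 mg/kg, 1 of these 3 calls was left. The Mtf1 difference of -0.81 ± 0.22 (adjusted p = 0.0373) was lost in 11 of 24 settings, 8 of which left out an array, with values of -0.87 to -0.59 and adjusted p of 0.0509 to 0.153. From 100 to 300 mg/kg those 3 and Slc11a2 were lower, with a background of 21.5% (12.1% higher, 9.36% lower).

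The linear dose trend over the 12 challenged arrays called 6 of the 10, Slc30a1 upwards and Slc39a14, Slc39a10, Slc31a2, Slc11a2 and Mtf1 downwards. The background was 31.2% (17.4% higher, 13.8% lower). Per 100 mg/kg the trends were 0.52 ± 0.10 for Slc30a1, -0.95 ± 0.11 for Slc39a14, -0.45 ± 0.07 for Slc39a10, -0.43 ± 0.08 for Slc31a2, -0.47 ± 0.08 for Slc11a2 and -0.34 ± 0.08 for Mtf1. With the actin covariate the trend of Slc31a2 was not called (-0.37, adjusted p = 0.0719).

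**Figure D4:**
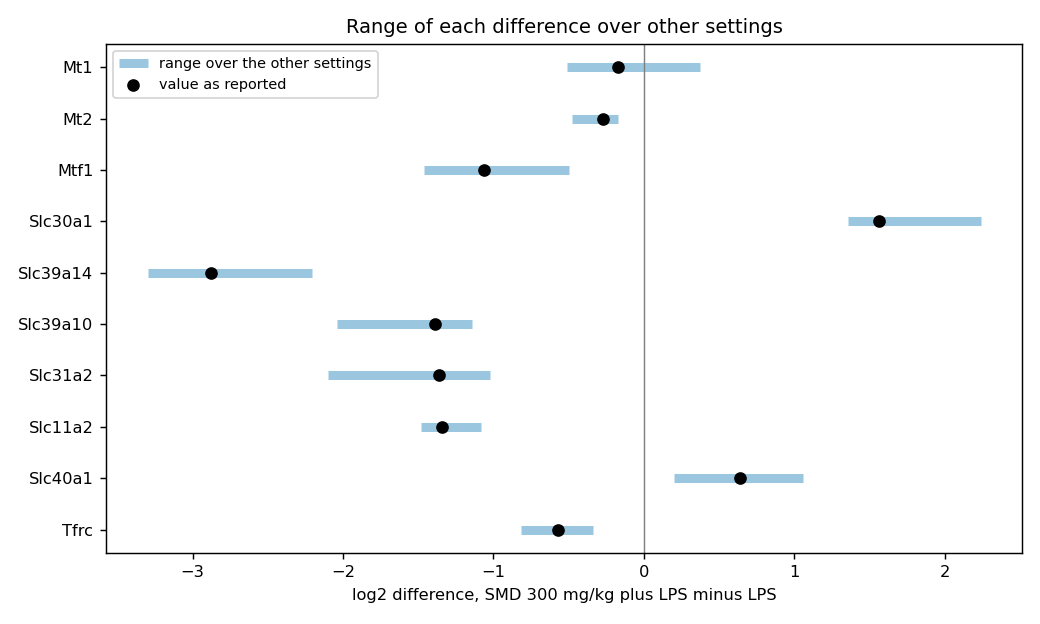
Log2 difference of SMD at 300 mg/kg from LPS (horizontal axis) for the 10 genes: black points are the values as reported and blue bars the range over 24 other settings, 14 of which leave out 1 array. The bar of Mt1 crosses 0 (-0.51 to 0.37), and those of the other 9 genes do not.

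Other genes of zinc, copper and iron handling were taken from lists of 24, 16 and 32 names. In the zinc list 20 were tested, and 5 rose and 1 fell with LPS, while 5 rose and 2 fell at 300 mg/kg against LPS. In the copper list, with 14 tested, 6 rose and 1 fell with LPS, and 3 rose and 3 fell at 300 mg/kg. The iron list had 25 tested, with 6 up and 6 down with LPS and 3 up and 2 down at 300 mg/kg. Together 25 of 59 listed genes (42.4%) were called with LPS, beside 32.5% of all genes, and 18 of 59 (30.5%) at 300 mg/kg, beside 31.7%, which is near the background. List medians at 300 mg/kg were 0.36 for zinc, 0.01 for copper and 0.18 for iron, beside 0.05 for all genes.

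With 100 mg/kg none of the listed genes was called. At 200 mg/kg the calls were 3 up and 1 down for zinc, 1 up for copper and 2 up and 1 down for iron. Together these were 8 of 59 listed genes (13.6%), beside 14.9% of all genes, which is near the background. The genes up were Slc30a7 (1.02), Slc39a1 (1.12), Slc39a11 (0.61), Atp7a (0.74), Pcbp2 (0.50) and Slc25a37 (0.99), and Lcn2 was down (-0.92). Each of these 7 calls was lost in 1 to 6 of 24 other settings, while the differences kept their direction, for example at 0.79 to 1.26 for Slc25a37, -1.02 to -0.62 for Lcn2 and 0.46 to 0.76 for Slc39a11. Slc39a12, the one zinc gene down (-2.17 ± 0.59, adjusted p = 0.0221), was dim, with signals of 57.7, 120.5 and 82.4 with LPS and 4.1, 3.1 and 12.3 at 200 mg/kg. That call was lost in 7 of 24 other settings, 5 of which left out an array of either group (-2.39 to -1.94, adjusted p = 0.0524 to 0.0717).

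Several listed genes went the way of Slc30a1 or of Slc39a14. Atp7a, the copper exporter of the Golgi and plasma membrane, fell with LPS (-1.18 ± 0.22) and was higher at 300 mg/kg (1.68 ± 0.19, adjusted p = 6.23e-06). It read 2349 and 2499.9 on naive arrays, 1003, 1252 and 956 with LPS, and 3444, 3638 and 3252 at 300 mg/kg, above every other array. Slc25a37, mitoferrin, which takes iron into mitochondria, also fell with LPS (-1.72 ± 0.26) and was higher at 300 mg/kg (1.62 ± 0.23, adjusted p = 4.07e-05).

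Lcn2, lipocalin 2, which binds bacterial iron carriers, rose with LPS from 65.2 and 58.5 to 18203, 14264 and 16693 (7.71 ± 0.25). With 300 mg/kg it read 2302, 1673 and 3519, a fall of -2.77 ± 0.22 (adjusted p = 2.88e-07). Steap4, a metalloreductase for iron and copper, rose with LPS by 5.40 ± 0.34 and fell by -1.71 ± 0.30 at 300 mg/kg (adjusted p = 0.000354). The Golgi zinc transporter Slc30a6 rose by 1.38 ± 0.19 and fell by -0.87 ± 0.17 (adjusted p = 0.000687). Slc48a1, a haem transporter, and Hfe, a regulator of iron uptake, were among the iron genes that LPS lowered most (-2.14 ± 0.32 and -1.27 ± 0.23).

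Of the 18 listed genes called at 300 mg/kg, 5, Atp7a, Lcn2, Slc25a37, Slc30a6 and Steap4, were called in all 24 other settings. With the actin covariate 6 of the 18 were called. The calls were lost in at least 1 setting for S100a8, S100a9, Hfe, Hp, Sco2, Slc39a1, Slc39a7, Slc39a11, Slc30a7, Sod1, Pcbp2, Cp and Commd1, with differences from -1.70 (Sco2) to 1.08 (Hfe). The rises of S100a8 and S100a9, zinc-binding proteins that also serve as neutrophil markers here, were 1.05 ± 0.20 and 1.07 ± 0.25 (adjusted p = 0.000532 and 0.00357). With the actin covariate they were 0.59 and 0.62 (adjusted p = 0.143 and 0.284).

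Over the 12 challenged arrays the declining transporters moved together as a description: Pearson r was 0.92 between Slc39a14 and Slc31a2 and 0.88 between Slc39a14 and Slc11a2. The Mt1 set 1451612_at had an r of 0.80 with Slc30a1 1436164_at, while Mt1 1422557_s_at had -0.31. Arrays of one dose group share their treatment, and these values carry no test.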

How the data were processed

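RNA of 14 samples in 5 groups, taken from the sample titles, was hybridised to 1 array each. The files hold the authors' linear signal intensity of each probe set as deposited. The submitters' processing notes name MAS5 without a version. Each deposited array had a 2% trimmed mean of 500, so a signal is relative to the rest of its array. Precision is limited by how few arrays there are. Of 45037 probe sets that were no controls, 34945 had a single platform symbol, 932 several and 9160 none; 34741 symbols were updated through RefSeq tables.

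Values were taken as log2(signal + 16), which understates changes of dim genes, and the dimmest 40% of probe sets were left out (mean log2 under 5.64, about a signal of 33.9). Using limma 3.58.1 in R 4.3.3, all arrays entered a single fit with a mean for each group (lmFit, then eBayes with trend); tables were read with the package data.table, version 1.17.8. Tests were two-sided, with Benjamini-Hochberg adjustment over 27022 probe sets, and a call was an adjusted p under 0.05. The procedure was tested on simulated data. For counts of genes the probe set with the highest mean stood for a gene. Errors are limma's standard errors and folds are powers of the log2 difference.

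The members, the other lists and the tests were chosen with earlier results of these data known. Named were all members, listed genes called in a comparison of SMD with LPS, the 3 largest called list changes each way in LPS against naive, and the 5 genes most like Mt1 and Mt2. Alternatives were 2 other pseudocounts, no filter, quantile normalization, median scaling, only the groups compared, array weights, the mean over a gene's probe sets, a replicate block, the actin ratio as covariate, and leaving out each array.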

Additional observations from a re-analysis of the deposited data

How the results depend on the processing

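The number of the 10 genes called against LPS stayed at 2 to 4 for SMD at 200 mg/kg and 6 to 7 at 300 mg/kg in all settings tried, and at 7 to 9 for LPS against naive. For SMD at 100 mg/kg it was 0, but 2 with array weights and 0 to 1 with 1 array left out. For 300 against 200 mg/kg it was 3, but 1 with the mean of a gene's probe sets and 1 to 3 with 1 array left out. Where a call was involved, the sign turned in 2 single values: the Mt1 dose trend was 0.14 (adjusted p = 0.0366) with the mean of its probe sets, against -0.04, and Slc39a7 at 300 mg/kg was 0.21 (adjusted p = 0.81) with the actin covariate, against -1.13; the cause of the latter was not tested, and the former averages probe sets that disagree. Of 4128 comparisons of a member's value with another setting, 3896 kept direction and side of the threshold, 78 differed in sign with no call in either, 58 gained and 95 lost a call and 1 reversed. Array weights called 197 genes at 100 mg/kg against 0, 2977 against 1916 at 200 mg/kg and 400 against 170 for 200 against 100 mg/kg. The actin covariate called 270 at 200 mg/kg, 2091 against 4065 at 300 mg/kg, 1454 against 859 for 300 against 200 mg/kg and 1711 against 3996 for the trend. For 200 against 100 mg/kg, 81 were called with only the groups compared and 66 with the mean of probe sets. Replicate numbers did not pair the arrays: deviations of same-numbered arrays correlated at a median of 0.016 (-0.127 to 0.185, 26 pairs) and of others at -0.01. With the replicate block the members called were 5 against 4 for 300 against 100 mg/kg and equal to the values without it in the other 7 comparisons. Signals near the top of the range (Mt1 and Mt2) or near the dim threshold (Slc40a1) limit what could be seen.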
